A study of Arabidopsis thaliana with 48 samples.

Results

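The 10 transcripts described here encode RNA decay factors of Arabidopsis thaliana, and they were taken as the rows of the count table that carry their locus identifiers, 10 of 27420 genes. They are XRN2 (AT5G42540), XRN3 (AT1G75660), XRN4 (AT1G54490), DCP1 (AT1G08370), DCP2 (AT5G13570), VCS (AT3G13300), UPF1 (AT5G47010), MTR4 (AT1G59760), HEN2 (AT2G06990) and RRP6L2 (AT5G35910). RNA was measured separately in nuclei and in cytoplasm prepared from rosettes of plants aged 14 d and grown in long days, which the labels also call seedlings. Plants of tho5ab, which carry mutations in both THO5 genes, and of the wild type Col-0 were either moved to 37 °C for 3 h and harvested at once, or kept at 21 °C. The 8 groups held 6 libraries each: tho5ab nuclei at 37 °C and at 21 °C, tho5ab cytoplasm at 37 °C and at 21 °C, Col-0 nuclei at 37 °C and at 21 °C, and Col-0 cytoplasm at 37 °C and at 21 °C. THO5 belongs to the THO complex, which is loaded onto mRNA during transcription and has a part in export, and the study asked about export defects under heat. The labels do not give the tho5ab alleles, and nothing says that libraries of a group came from separate plants or cultures, so p-values measure the spread between these libraries only.

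Messenger RNA is degraded from either end. From the 5′ end, the decapping enzyme DCP2, its activator DCP1 and the scaffold VCS remove the cap, and XRN4 then digests the RNA in the cytoplasm, while XRN2 and XRN3 are its counterparts in the nucleus. From the 3′ end, the RNA exosome is helped in the nucleus by the helicases MTR4, which serves ribosomal RNA processing in the nucleolus, and HEN2, which serves other RNAs in the nucleoplasm, and by RRP6L2, a nuclear exonuclease of the RRP6 family. UPF1 is a helicase that marks mRNAs with premature stop codons for nonsense-mediated decay.

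The 250 bases before the start of MTR4 and RRP6L2, the transcripts with the largest heat response, and of UPF1, which fell in the cytoplasm, are shown as read 5′ to 3′ on the gene's own strand. They come from RefSeq's TAIR10.1 annotation, at chr1:21990287-21990536 (reverse strand) for MTR4, chr5:14035494-14035743 (reverse strand) for RRP6L2 and chr5:19071574-19071823 (forward strand) for UPF1. Capitals mark TGGGC or its reverse complement GCCCA, a motif that was chosen after the windows had been read.
MTR4: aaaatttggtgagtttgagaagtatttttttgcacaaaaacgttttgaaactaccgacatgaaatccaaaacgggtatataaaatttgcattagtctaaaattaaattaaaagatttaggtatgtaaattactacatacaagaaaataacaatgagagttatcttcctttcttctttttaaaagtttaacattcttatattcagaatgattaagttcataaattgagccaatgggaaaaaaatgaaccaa
RRP6L2: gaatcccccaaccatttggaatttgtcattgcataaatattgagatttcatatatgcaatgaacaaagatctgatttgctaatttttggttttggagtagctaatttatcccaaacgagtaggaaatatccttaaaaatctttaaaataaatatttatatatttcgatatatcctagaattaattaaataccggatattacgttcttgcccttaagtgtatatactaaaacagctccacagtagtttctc
UPF1: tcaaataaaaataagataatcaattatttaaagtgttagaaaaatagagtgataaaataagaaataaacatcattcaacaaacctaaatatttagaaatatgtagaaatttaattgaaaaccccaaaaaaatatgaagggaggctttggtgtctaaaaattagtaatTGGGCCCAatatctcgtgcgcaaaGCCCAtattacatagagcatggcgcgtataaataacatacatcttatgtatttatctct
The heat shock element core GAANNTTC, whose letters read alike on both strands, occurred in 0 of the 10 windows of these genes, against 9.55% of the 27419 windows of all genes. TGGGC on either strand occurred in 6 of the 10 (XRN3, XRN4, DCP2, VCS, HEN2 and UPF1), against 22.7% of all windows. Overlapping copies in UPF1, 83 to 79 and 80 to 76 bases before its start, form TGGGCCCA. Both rates describe letters in these windows and say nothing of any factor.

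Total counts per library lay between 2601946 and 19914838 in nuclei and between 1025185 and 2174279 in cytoplasm, so cytoplasmic values are less precise. Levels are CPM, counts scaled to library size after TMM scaling. In 16 of the 48 libraries, genes that lie inside another gene but on its other strand had high counts (called high opposite-strand libraries), and each group held 1 to 3 of these. THO5B had 0 CPM in every tho5ab cytoplasmic library and medians of 0.0483 and 0.953 CPM in tho5ab nuclei at 37 °C and 21 °C, against 4.79 and 6.30 CPM in Col-0 nuclei. THO5A was lower in heated tho5ab nuclei (median of 23.6 CPM) than in heated Col-0 nuclei (183 CPM), but not at 21 °C (102 CPM in tho5ab, 34.4 CPM in Col-0). Its libraries ranged widely in heated tho5ab nuclei, from 15.6 to 118 CPM, against 175 to 205 CPM in heated Col-0 nuclei. Of the markers of leaf mesophyll, 0 of 4 were at 0 in any group, and their summed median was 1487 to 2013 CPM in nuclei. In cytoplasm it was lower with heat: 42338 CPM in heated and 74171 CPM in unheated tho5ab, and 30399 CPM in heated and 97031 CPM in unheated Col-0, with no overlap of libraries in either genotype. Summed guard cell markers (0 of 4 at 0) had medians of 261 CPM in tho5ab and 148 CPM in Col-0 nuclei at 37 °C, and 405 and 187 CPM at 21 °C. Summed root markers (0 of 5 at 0 in nuclei) had 61.0 CPM in tho5ab and 36.2 CPM in Col-0 nuclei at 37 °C, and 142 and 55.0 CPM at 21 °C. Summed phloem markers (0 of 3 at 0) went the other way, with 35.6 to 46.0 CPM in tho5ab and 41.1 to 57.1 CPM in Col-0 nuclei at 37 °C, and 56.2 to 62.5 and 64.9 to 96.8 CPM at 21 °C. In cytoplasm the libraries of tho5ab and Col-0 overlapped for the guard cell, root and phloem sums at both temperatures. Cytoplasmic medians at 37 °C, tho5ab first, were 33.2 and 37.6 CPM for guard cell, 26.5 and 34.1 CPM for root and 67.3 and 68.9 CPM for phloem markers. At 21 °C they were 44.1 and 42.6 CPM, 48.7 and 43.8 CPM, and 141 and 117 CPM. The part of these markers in the heat and genotype comparisons was not tested. In such bulk samples, fewer cells of a type and less RNA per cell cannot be told apart.

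All 10 transcripts had counts high enough to be tested, as had 17981 genes in all. The lowest count of any of them in a library was 8, for DCP2 and HEN2 in the Col-0 cytoplasm. Per kilobase of the longest annotated transcript, DCP1 stood first in all 4 cytoplasmic groups, with means from 61.4 CPM per kb in Col-0 at 21 °C to 97.6 CPM per kb in tho5ab at 37 °C (n = 6). VCS was second there, at 26.0 to 38.8 CPM per kb. In nuclei at 21 °C UPF1 led, with 35.2 ± 1.81 CPM per kb in tho5ab and 41.5 ± 2.58 CPM per kb in Col-0 (SD, n = 6 each), ahead of XRN4 and VCS. In nuclei at 37 °C RRP6L2 led instead, with 48.2 ± 3.02 CPM per kb in tho5ab and 74.5 ± 6.80 CPM per kb in Col-0. HEN2 was last in every group, at 5.45 to 8.57 CPM per kb. Some neighbours in the order did not differ beyond their spread, such as XRN4 (32.1 ± 3.60 CPM per kb) and VCS (30.2 ± 1.92 CPM per kb) in Col-0 nuclei at 21 °C.

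**Figure D1:**
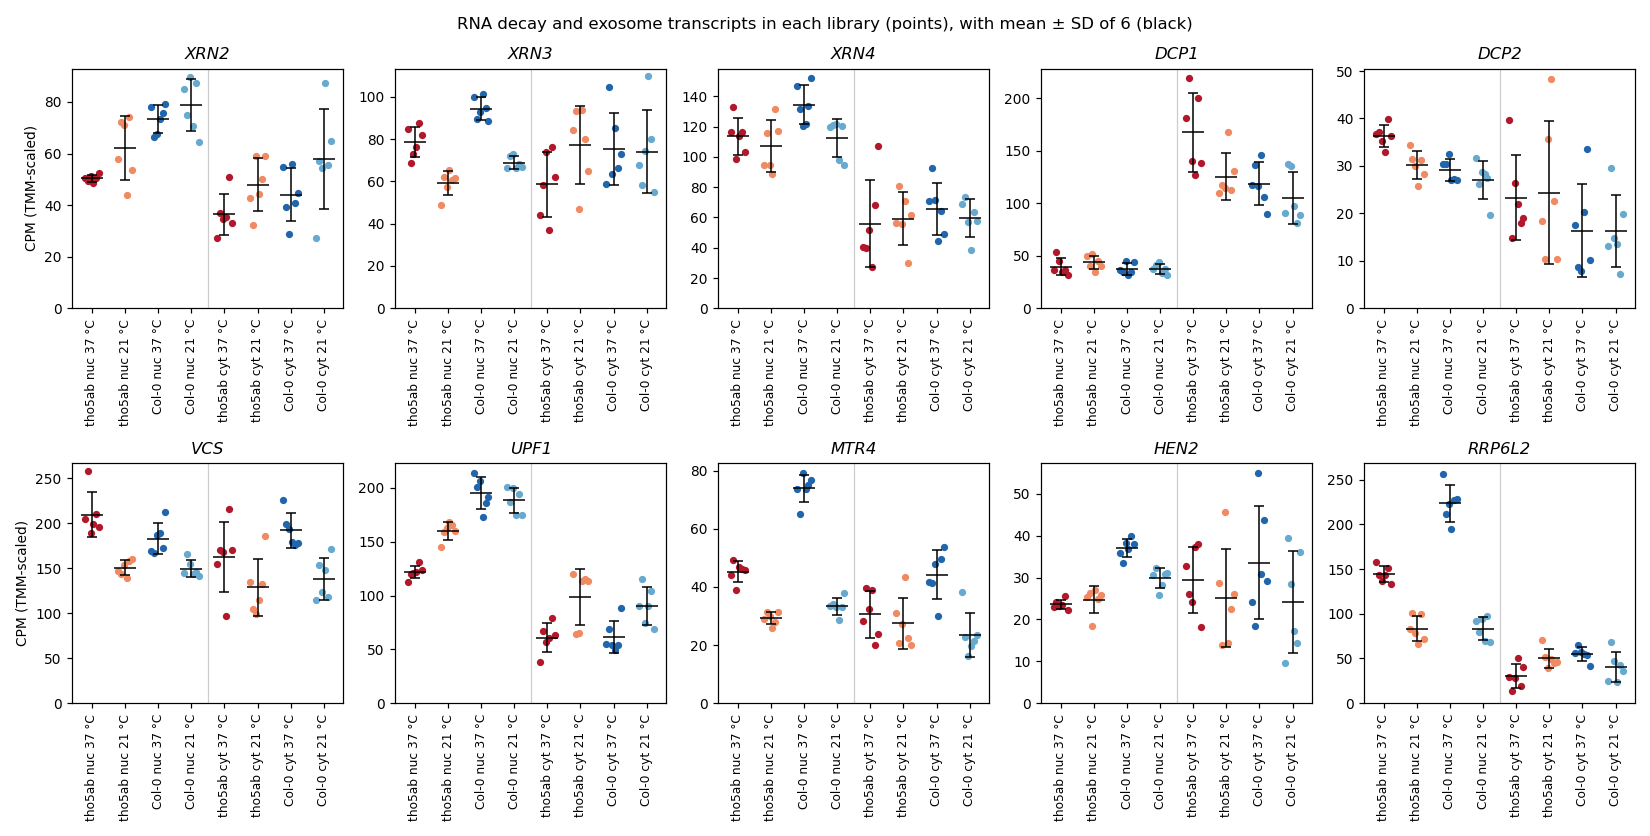
Level in CPM (vertical axis, linear, from 0) of each of the 10 transcripts in each of the 48 libraries (points), with the mean ± SD of the 6 libraries of a group in black and nuclei left of the grey line. RRP6L2 and MTR4 stand highest in Col-0 nuclei at 37 °C, and DCP1 is higher in all cytoplasmic groups.

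The nuclear exosome factors RRP6L2 and MTR4 rose with heat in nuclei of both genotypes, MTR4 in tho5ab not past the threshold with library totals alone, and UPF1 fell in both cytoplasms. XRN3 rose in nuclei of both genotypes, and the decapping scaffold VCS in 3 of the 4 heat comparisons. By edgeR's quasi-likelihood test with Benjamini-Hochberg adjustment over all tested genes, at a threshold of 0.05, 5 of the 10 changed in tho5ab nuclei (4 higher, 1 lower), where 52.1% of all tested genes were called (25.1% higher, 27.1% lower). In tho5ab cytoplasm 4 changed (2 higher, 2 lower), where 42.1% of all genes were called (22.2% higher, 20% lower). In Col-0 nuclei 3 changed, all higher, where 45.7% of all genes were called (21.9% higher, 23.8% lower). In Col-0 cytoplasm 3 changed (2 higher, 1 lower), where 44.4% of all genes were called (24.7% higher, 19.7% lower). These shares were near or below the background, so the count itself does not set the 10 apart. Their median log2 change was 0.18 and -0.05 in tho5ab nuclei and cytoplasm, and 0.27 and 0.15 in Col-0 nuclei and cytoplasm, beside medians over all tested genes of -0.07, -0.01, -0.06 and 0.07.

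RRP6L2, the RRP6-type exonuclease, gave the largest change. In tho5ab nuclei its lowest, median and highest library held 134, 143 and 158 CPM at 37 °C, against 66.2, 80.9 and 100.3 CPM at 21 °C. In Col-0 nuclei these values were 195, 225 and 256 CPM at 37 °C, against 68.1, 85.9 and 97.6 CPM at 21 °C. The heated libraries were higher without overlap in both genotypes, with log2 changes of 0.79 ± 0.17 (approximate SE) in tho5ab (edgeR adjusted p = 0.000133) and 1.42 ± 0.17 in Col-0 (edgeR adjusted p = 2.16e-09). In the cytoplasm the picture was different. There tho5ab held 13.6, 28.6 and 50.7 CPM at 37 °C, against 39.4, 47.5 and 70.3 CPM at 21 °C, a change of -0.75 ± 0.21 with overlapping libraries (edgeR adjusted p = 0.0033). Col-0 cytoplasm held 41.5, 55.5 and 65.4 CPM at 37 °C, against 23.4, 39.6 and 67.9 CPM at 21 °C, a change of 0.43 ± 0.20 that did not pass (edgeR adjusted p = 0.0751). Without replicate 2 it passed (0.59, adjusted p = 0.0166 by edgeR).

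The heat change of RRP6L2 was 1.54 ± 0.27 more positive in nuclei than in cytoplasm of tho5ab (edgeR adjusted p = 3.73e-05), and 0.99 ± 0.26 in Col-0 (edgeR adjusted p = 0.00645). Of all tested genes 17% and 16% passed these fraction by heat tests. In the cytoplasm the difference of the heat changes, tho5ab less Col-0, was -1.18 ± 0.29 (edgeR adjusted p = 0.0125), the 1 transcript of the 10 that passed this genotype by heat test, as did 4.02% of all genes. That call was lost without the 16 high opposite-strand libraries (adjusted p = 0.0911), without replicate 1 (-0.95, adjusted p = 0.096) and with only the groups compared (-1.15, adjusted p = 0.176), the largest of its alternatives. In the other libraries the means were 26.0 CPM (5 libraries) at 37 °C and 49.0 CPM (3) at 21 °C in tho5ab cytoplasm, and 57.4 CPM (5) and 52.6 CPM (3) in Col-0 cytoplasm. In the high opposite-strand libraries they were 50.7 CPM (1) and 51.6 CPM (3) in tho5ab, and 41.5 CPM (1) and 28.2 CPM (3) in Col-0.

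MTR4, the nucleolar exosome helicase, had 38.8, 46.0 and 49.3 CPM in tho5ab nuclei at 37 °C, against 26.0, 29.4 and 31.4 CPM at 21 °C. In Col-0 nuclei it had 65.2, 74.3 and 79.3 CPM at 37 °C, against 28.6, 33.3 and 37.7 CPM at 21 °C. All heated nuclear libraries lay above all unheated ones of their genotype, by 0.63 ± 0.15 in tho5ab (edgeR adjusted p = 0.000598) and 1.15 ± 0.15 in Col-0 (edgeR adjusted p = 2.05e-08). With library totals alone the tho5ab change was 0.24 and did not pass (adjusted p = 0.166), the 1 alternative of 16 that lost this call. The Col-0 rise was as large among the 2 and 2 high opposite-strand libraries (means of 72.2 CPM at 37 °C and 33.2 CPM at 21 °C) as among the other 4 and 4 (74.7 and 33.4 CPM). In the Col-0 cytoplasm MTR4 rose by 0.90 ± 0.18, to 44.1 ± 8.39 CPM at 37 °C against 23.6 ± 7.59 CPM at 21 °C (edgeR adjusted p = 6.84e-05). In the tho5ab cytoplasm it held 30.5 ± 7.93 CPM at 37 °C and 27.5 ± 8.78 CPM at 21 °C (0.13 ± 0.19, adjusted p = 0.604 by edgeR). The test of the difference between genotypes gave -0.77 ± 0.26 in cytoplasm (edgeR adjusted p = 0.0835) and -0.52 ± 0.22 in nuclei (edgeR adjusted p = 0.225), so neither passed. Some alternatives gained these calls. In nuclei they were DESeq2's Wald test (-0.59, adjusted p = 2.3e-05), only the groups compared (-0.43) and library totals alone (-0.75). In cytoplasm they were the Wald test (-0.73, adjusted p = 0.0377) and library totals alone (-1.16). HEN2, the nucleoplasmic helicase, passed in no heat comparison with TMM scaling and all libraries, with log2 changes from -0.07 to 0.48. In Col-0 nuclei its heated libraries were higher without overlap, and it passed there with only the groups compared (0.42, adjusted p = 0.000131 by edgeR). In Col-0 cytoplasm HEN2 passed without replicate 2 (0.79, adjusted p = 0.0168 by edgeR). Reads of HEN2 are uncertain, because it overlaps AT2G07000 on the opposite strand by 151 bases.

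**Figure D2:**
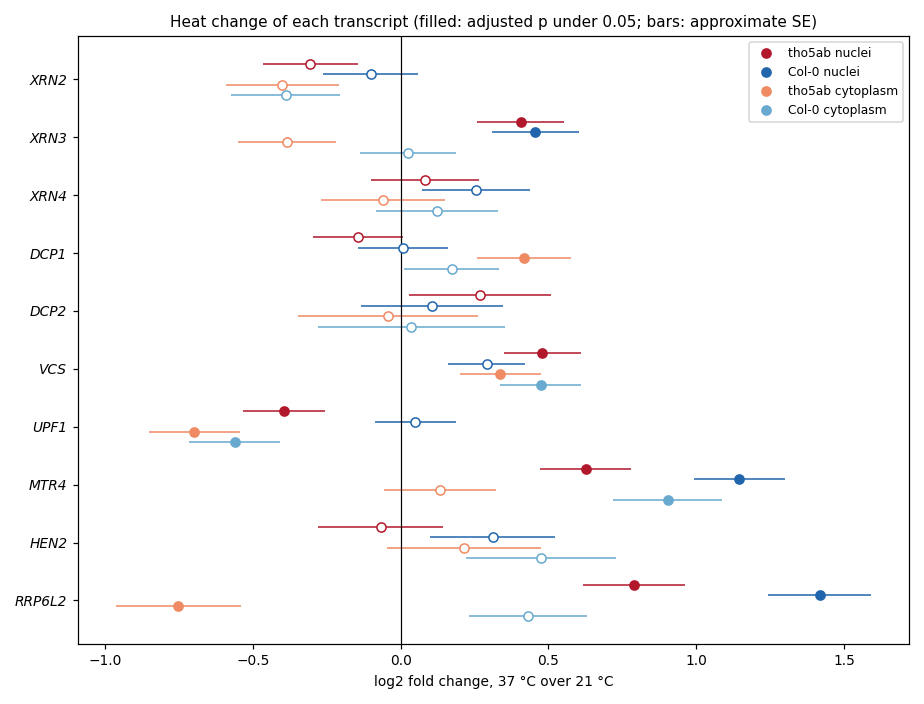
Log2 fold change of each of the 10 transcripts at 37 °C over 21 °C (horizontal axis), with approximate SE bars, in nuclei and cytoplasm of tho5ab and Col-0; filled points passed the adjusted p threshold of 0.05. RRP6L2 has the widest spread, from -0.75 in tho5ab cytoplasm to 1.42 in Col-0 nuclei, and UPF1 lies at -0.56 or lower in both cytoplasms.

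Among the 5′ to 3′ exonucleases, XRN3 rose in nuclei of both genotypes. Its libraries in tho5ab nuclei had 68.7, 79.0 and 87.5 CPM at 37 °C, against 49.1, 61.0 and 65.6 CPM at 21 °C, without overlap (0.41 ± 0.15, edgeR adjusted p = 0.018). In Col-0 nuclei they had 88.7, 93.5 and 101 CPM at 37 °C, against 66.3, 67.5 and 72.9 CPM at 21 °C, again without overlap (0.46 ± 0.15, edgeR adjusted p = 0.00915). The tho5ab call was lost with DESeq2's size factors (0.23) its Wald test (0.24) and library totals alone (0.02), and without replicate 1 (0.34) or replicate 6 (0.38), at adjusted p up to 0.919, and the Col-0 call with library totals alone (0.30, adjusted p = 0.0943). In the tho5ab cytoplasm XRN3 changed by -0.39 ± 0.17 (edgeR adjusted p = 0.0558), and the difference between the heat changes of the fractions was 0.79 ± 0.22 in tho5ab (edgeR adjusted p = 0.00869). That difference did not pass without replicate 1 (0.63, adjusted p = 0.0868) or replicate 5 (0.68, adjusted p = 0.0619). The tho5ab cytoplasmic change of XRN3 itself passed in 6 of 16 alternatives, at -0.51 with DESeq2's size factors (adjusted p = 0.0115) and -0.93 with library totals alone. XRN2 and XRN4 passed in no heat comparison with TMM scaling and all libraries. XRN2 gave negative values in all 4, from -0.40 to -0.10. Without replicate 1 XRN2 passed as lower in Col-0 cytoplasm (-0.60, adjusted p = 0.00927 by edgeR). With DESeq2's size factors it passed as lower in 3, at -0.47 in tho5ab nuclei (adjusted p = 0.00854), -0.52 in tho5ab cytoplasm (adjusted p = 0.0186) and -0.56 in Col-0 cytoplasm (adjusted p = 0.00809), and these 3 also passed with the Wald test and with library totals alone. XRN4 gave -0.06 to 0.26, and passed in tho5ab cytoplasm with library totals alone (-0.56) and in Col-0 nuclei with only the groups compared (0.37).

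Of the decapping factors, VCS had 190, 202 and 258 CPM in tho5ab nuclei at 37 °C, against 139, 151 and 160.3 CPM at 21 °C, higher without overlap (0.48 ± 0.13, edgeR adjusted p = 0.00184). In the Col-0 cytoplasm it had 176, 186 and 226 CPM at 37 °C, against 114, 136 and 171 CPM at 21 °C, also without overlap (0.47 ± 0.14, edgeR adjusted p = 0.00388). Col-0 nuclei gave 0.29 ± 0.13, which did not pass (edgeR adjusted p = 0.063) although the libraries did not overlap. VCS passed there without replicate 2 (0.35) and with only the groups compared (0.40). The tho5ab cytoplasm gave 0.34 ± 0.14 (edgeR adjusted p = 0.0436), a call that held in 3 of 16 alternatives and turned to -0.23 with library totals alone. The tho5ab nuclear call was lost with library totals alone (0.09), and the Col-0 cytoplasmic one with those (0.30), without replicate 1 (0.37) and with only the groups compared (0.29).

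DCP1, the decapping activator, rose in tho5ab cytoplasm alone among the 4 heat tests, with 127, 161 and 219 CPM at 37 °C against 109.5, 116 and 168 CPM at 21 °C. Its libraries overlapped (0.42 ± 0.16, edgeR adjusted p = 0.0293), and the call held in 7 of 16 alternatives, was lost without replicate 1 (0.36), 2 (0.31) or 6 (0.33), and turned to -0.15 with library totals alone. In tho5ab nuclei DCP1 passed as lower with library totals alone (-0.53, adjusted p = 0.00122 by edgeR) and with DESeq2's Wald test (-0.32, adjusted p = 0.0353). DCP2, the decapping enzyme, passed in none of the 4, with changes between -0.04 and 0.27. With only the groups compared it passed as higher in tho5ab nuclei (0.32, adjusted p = 0.00701 by edgeR).

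UPF1, the nonsense-mediated decay helicase, fell in both cytoplasms. In tho5ab cytoplasm it had 38.5, 62.2 and 79.0 CPM at 37 °C, against 64.6, 114 and 119.9 CPM at 21 °C (-0.70 ± 0.16, edgeR adjusted p = 0.000255). In Col-0 cytoplasm it had 49.6, 54.5 and 88.6 CPM at 37 °C, against 68.5, 90.3 and 115 CPM at 21 °C (-0.56 ± 0.15, edgeR adjusted p = 0.00236). The ranges of heated and unheated libraries overlapped in both. In tho5ab nuclei it fell as well, to 113, 121 and 131 CPM at 37 °C against 145, 161 and 168 CPM at 21 °C, without overlap (-0.39 ± 0.14, edgeR adjusted p = 0.0151). This call was lost without replicate 4 (-0.32) or 5 (-0.38) and without the 16 high opposite-strand libraries (-0.33, adjusted p = 0.106). Col-0 nuclei stayed within the spread (195 ± 14.9 CPM at 37 °C, 188 ± 11.7 CPM at 21 °C; 0.05 ± 0.14). With only the groups compared UPF1 passed as higher there (0.16, adjusted p = 0.0407 by edgeR).

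Scaling moved these sizes together. A change of scaling shifts all genes of a comparison by nearly the same amount. Values relative to the median of all genes therefore stay nearly the same by arithmetic, here and below, and add no support. The median heat change of all genes lay between -0.45 and -0.07 in tho5ab nuclei, -0.56 and -0.01 in tho5ab cytoplasm, -0.22 and -0.06 in Col-0 nuclei and -0.08 and 0.07 in Col-0 cytoplasm over TMM, DESeq2's size factors and library totals alone. Relative to that median, RRP6L2 was higher by 0.86 to 0.87 in tho5ab nuclei and 1.48 in Col-0 nuclei under each of the 3, and MTR4 by 0.69 and 1.21. UPF1 lay -0.69 to -0.68 from it in tho5ab cytoplasm and -0.65 to -0.63 in Col-0 cytoplasm.

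In the comparison of genotypes, 5 of the 10 transcripts were called lower in heated nuclei of tho5ab than in those of Col-0, and 0 were called higher. Called were XRN2, UPF1, MTR4, HEN2 and RRP6L2, where 34.4% of all tested genes were called (18.5% higher, 15.9% lower). Without overlap between libraries were 7 of the 10, beside 40% of all tested genes. These were the 5 called, XRN3, which was lower in tho5ab, and DCP2, which was higher in tho5ab (36.4 against 29.1 CPM). At 21 °C 0 of the 10 passed in nuclei (21.5% of all genes) and 0 in cytoplasm (3.58%) by edgeR; at an unadjusted p under 0.05 there were 1 and 0, and by DESeq2's Wald test 4 and 0. In the cytoplasm at 37 °C 3 passed, DCP1 higher and MTR4 and RRP6L2 lower, where 14.1% of all genes were called (6.37% higher, 7.71% lower).

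UPF1 had 113, 121 and 131 CPM in tho5ab nuclei at 37 °C, against 173, 196 and 214 CPM in Col-0 (-0.68 ± 0.14, edgeR adjusted p = 9.57e-05). MTR4 had 38.8, 46.0 and 49.3 CPM, against 65.2, 74.3 and 79.3 CPM in Col-0 (-0.71 ± 0.15, edgeR adjusted p = 0.00021). RRP6L2 had 134, 143 and 158 CPM, against 195, 225 and 256 CPM in Col-0 (-0.63 ± 0.17, edgeR adjusted p = 0.00314). All 6 tho5ab libraries were lower than all 6 of Col-0 for each of these 3, and likewise for the next 2. XRN2 had 48.5, 50.5 and 52.5 CPM in tho5ab, against 66.4, 74.7 and 79.2 CPM in Col-0 (-0.54 ± 0.16, edgeR adjusted p = 0.00656). HEN2 averaged 23.6 ± 1.15 CPM in tho5ab and 37.1 ± 2.22 CPM in Col-0 (-0.65 ± 0.21, edgeR adjusted p = 0.013).

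These 5 calls held in all 16 alternatives. In the high opposite-strand libraries RRP6L2 averaged 137 CPM in 1 tho5ab and 217 CPM in 2 Col-0 libraries, and in the others 146 CPM in 5 tho5ab and 227 CPM in 4 Col-0 libraries. Relative to the median of all genes, which was -0.38 to -0.08 under the 3 scalings, the differences were -0.63 for MTR4, -0.60 for UPF1, -0.58 to -0.57 for HEN2, -0.55 for RRP6L2 and -0.47 to -0.46 for XRN2. XRN4 (-0.24 ± 0.18), XRN3 (-0.26 ± 0.15), DCP1 (0.07 ± 0.15), DCP2 (0.32 ± 0.24) and VCS (0.20 ± 0.13) did not pass. Of these, XRN3 passed as lower in 4 of 16 alternatives (-0.57 to -0.26) and XRN4 in 3 (-0.55 to -0.24). DCP2 passed as higher with only the groups compared (0.33, adjusted p = 0.00171 by edgeR). The test of whether the heat change differed between genotypes called 0 of the 10 in nuclei by edgeR, where 3.69% of all genes passed. At an unadjusted p under 0.05 there were 3, and by DESeq2's Wald test 3.

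**Figure D3:**
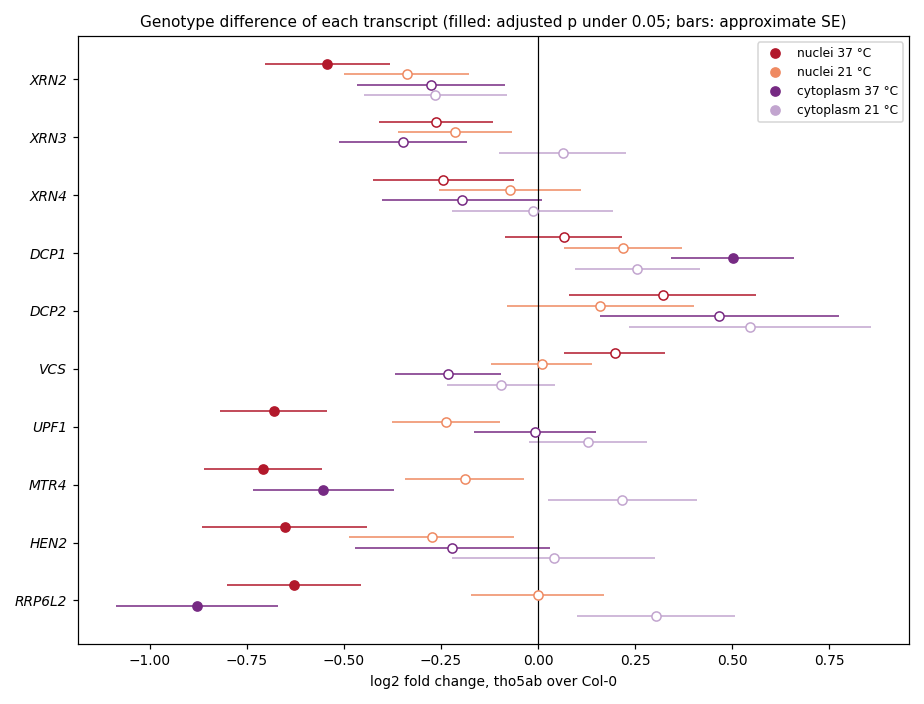
Log2 fold change of each of the 10 transcripts in tho5ab over Col-0 (horizontal axis), with approximate SE bars, in nuclei and cytoplasm at 37 °C and at 21 °C; filled points passed the adjusted p threshold of 0.05. All 5 filled points of nuclei at 37 °C lie between -0.71 and -0.54, and no point of 21 °C is filled.

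In the heated cytoplasm RRP6L2 had 13.6, 28.6 and 50.7 CPM in tho5ab, against 41.5, 55.5 and 65.4 CPM in Col-0, with 5 of the 6 tho5ab libraries below all of Col-0 (-0.88 ± 0.21, edgeR adjusted p = 0.00262). Of the alternatives only the fit of the groups compared lost this call (-0.82, adjusted p = 0.0508). MTR4 had 20.0, 30.3 and 39.6 CPM in tho5ab, against 30.1, 44.9 and 53.9 CPM in Col-0, with overlap (-0.55 ± 0.18, edgeR adjusted p = 0.0321). Its call held in 6 of 16 alternatives and was lost without replicate 1 (-0.55), 3 (-0.53), 6 (-0.39) or 7 (-0.49), at adjusted p up to 0.207, and with only the groups compared (-0.51, adjusted p = 0.241). DCP1 had 127, 161 and 219 CPM in tho5ab, against 89.8, 117 and 146 CPM in Col-0 (0.50 ± 0.16, edgeR adjusted p = 0.0256). That call was lost without replicate 1 (0.47), 2 (0.45) or 6 (0.38), without the high opposite-strand libraries (0.50) and with library totals alone (0.17, adjusted p = 0.415).

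Between the fractions, DCP1 was the one transcript of the 10 that lay lower in nuclei than in cytoplasm in all 4 comparisons, while RRP6L2, UPF1 and XRN4 were higher in nuclei in all 4. Passing the edgeR test were 9 of the 10 in tho5ab at 37 °C (8 higher in nuclei, 1 lower), where 63.9% of all tested genes were called (37% higher, 26.9% lower). In tho5ab at 21 °C 5 passed (3 higher, 2 lower), where 67.9% of all were called (40.5% higher, 27.4% lower). In Col-0 at 37 °C 7 passed (6 higher, 1 lower), where 61.6% were called (32.6% higher, 28.9% lower). In Col-0 at 21 °C 7 passed (6 higher, 1 lower), where 67% were called (38.9% higher, 28% lower). The median over all genes was above 0 in each, between 0.24 and 0.48, and it moved to 0.74 to 0.85 with DESeq2's size factors and to 1.59 to 1.78 with library totals alone. The share of calls higher in nuclei moved with it, in Col-0 at 37 °C to 68.1% and 84.4%, against 53% with TMM. The leading members are therefore also given relative to that median, which does not restore a call lost under another scaling. CPM are shares of a library, and spike-in counts were not used. Differences between fractions are therefore not differences in the amount of RNA.

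DCP1 had 31.9, 36.4 and 53.5 CPM in tho5ab nuclei at 37 °C, against 127, 161 and 219 CPM in tho5ab cytoplasm (-2.09 ± 0.16, edgeR adjusted p = 1.17e-16). In Col-0 at 37 °C it had 31.7, 35.5 and 44.9 CPM in nuclei, against 89.8, 117 and 146 CPM in cytoplasm (-1.65 ± 0.16, edgeR adjusted p = 3.15e-13). At 21 °C the differences were -1.52 ± 0.16 in tho5ab and -1.49 ± 0.16 in Col-0, and in no comparison did the libraries of the 2 fractions overlap. With library totals alone the Col-0 differences did not pass (-0.29 at 37 °C and -0.14 at 21 °C, adjusted p = 0.0535 and 0.37). Relative to the median of all genes they were -1.89 to -1.88 and -1.91 to -1.89 under the 3 scalings, and in tho5ab -2.51 to -2.49 at 37 °C and as low as -2.01 at 21 °C.

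RRP6L2 went the other way, by 2.28 ± 0.20 in tho5ab at 37 °C (145 ± 9.06 CPM in nuclei, 30.2 ± 13.7 CPM in cytoplasm; edgeR adjusted p = 1.8e-14) and 2.03 ± 0.19 in Col-0 at 37 °C (223 ± 20.4 CPM in nuclei, 54.8 ± 7.67 CPM in cytoplasm; edgeR adjusted p = 9.51e-14). At 21 °C it was 0.73 ± 0.19 in tho5ab and 1.04 ± 0.19 in Col-0. Libraries overlapped in tho5ab at 21 °C and in none of the other 3. Relative to the median of all genes RRP6L2 was higher in nuclei by 1.83 to 1.85 in tho5ab at 37 °C, 0.25 in tho5ab at 21 °C, 1.78 to 1.79 in Col-0 at 37 °C and 0.62 to 0.63 in Col-0 at 21 °C.

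UPF1 had 122 ± 5.90 CPM in nuclei and 60.9 ± 13.4 CPM in cytoplasm of tho5ab at 37 °C (edgeR adjusted p = 9.67e-08), and 195 ± 14.9 CPM in nuclei and 61.6 ± 14.7 CPM in cytoplasm of Col-0 (1.67 ± 0.15, edgeR adjusted p = 3.23e-14). Relative to the median of all genes UPF1 was higher in nuclei by 0.57 to 0.58 in tho5ab and 1.43 in Col-0 at 37 °C. At 21 °C this was 0.21 to 0.22 in tho5ab and 0.64 to 0.65 in Col-0. Its fraction difference at 37 °C was smaller in tho5ab than in Col-0, with a difference of -0.67 ± 0.21 (edgeR adjusted p = 0.0208), the 1 of the 10 that passed this test, as did 14.7% of all genes. That call was lost without replicate 3 (-0.62), 4 (-0.60) or 5 (-0.65), at adjusted p up to 0.0826. At 21 °C 0 of the 10 passed this test by edgeR (6.4% of all genes), 0 had an unadjusted p under 0.05, and 1 passed DESeq2's Wald test. In Col-0 the heat change of UPF1 was 0.61 ± 0.21 higher in nuclei than in cytoplasm (edgeR adjusted p = 0.0339), a call lost with no filter (0.60) and without replicate 1 (0.57), 2 (0.55), 3 (0.63), 4 (0.54) or 5 (0.55).

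XRN4, the cytoplasmic exonuclease by its protein's place, had higher CPM in nuclei. The log2 differences were 0.99 ± 0.20 and 0.85 ± 0.20 in tho5ab at 37 °C and 21 °C, and 1.04 ± 0.19 and 0.91 ± 0.20 in Col-0. In Col-0 at 21 °C its libraries held 94.7, 120.0 and 122 CPM in nuclei and 38.2, 60.7 and 73.8 CPM in cytoplasm, without overlap. Relative to all genes the 4 differences lay between 0.36 and 0.80. HEN2 passed in none of the 4 with TMM (-0.30 to 0.29), and relative to all genes it lay at or below -0.10 in each. VCS passed in tho5ab at 37 °C alone (0.36 ± 0.13) and lay -0.31 to -0.05 from the median of all genes. XRN3 was lower in tho5ab nuclei at 21 °C (-0.38 ± 0.16, edgeR adjusted p = 0.0288) and higher at 37 °C (0.41 ± 0.16, edgeR adjusted p = 0.02). The first was lost in 8 alternatives, was -0.01 with DESeq2's size factors and became 0.83 with library totals alone, and the second was lost without replicate 1 (0.32) or 5 (0.34) and with only the groups compared (0.36). Relative to the median of all genes XRN3 in tho5ab lay at -0.86 to -0.84 at 21 °C under the 3 scalings. At 37 °C it lay at -0.009 to 0.005, so it was no higher in nuclei than the median gene. MTR4, XRN2 and DCP2 passed in 3 comparisons each, all higher in nuclei, by 0.45 to 0.79. Relative to the median of all genes they were higher by 0.49 to 0.56 in Col-0 at 37 °C. In tho5ab at 37 °C this was 0.16 to 0.19 for MTR4, 0.04 to 0.06 for XRN2 and 0.22 to 0.24 for DCP2. In Col-0 at 21 °C it was 0.08 to 0.09, 0.02 to 0.03 and 0.30 to 0.31. The calls of MTR4, XRN2 and DCP2 in Col-0 at 21 °C were lost without replicate 3 for each (0.43, 0.39 and 0.68), and without replicate 1 or 5 for XRN2 (0.28 and 0.41) and without replicate 1, 4 or 5 for DCP2 (0.61, 0.67 and 0.55). In tho5ab at 37 °C the calls of XRN2 and DCP2 were lost without replicate 7 (0.42 and 0.58), and also without replicate 1 for XRN2 (0.40) and without 2 or 6 for DCP2 (0.54 and 0.55). In Col-0 at 37 °C that of DCP2 was lost without replicate 3 (0.61). The VCS call in tho5ab at 37 °C was lost without replicate 2 (0.30) or 5 (0.27) and with only the groups compared (0.30). That last fit also lost the calls of MTR4 (0.39) and XRN2 (0.33) in Col-0 at 21 °C. Without the high opposite-strand libraries DCP2 lost its calls in Col-0 at 37 °C (0.65) and 21 °C (0.77). Without the tho5ab libraries of number 7 at 37 °C, XRN2 (0.43) and DCP2 (0.59) lost theirs in tho5ab at 37 °C.

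**Figure D4:**
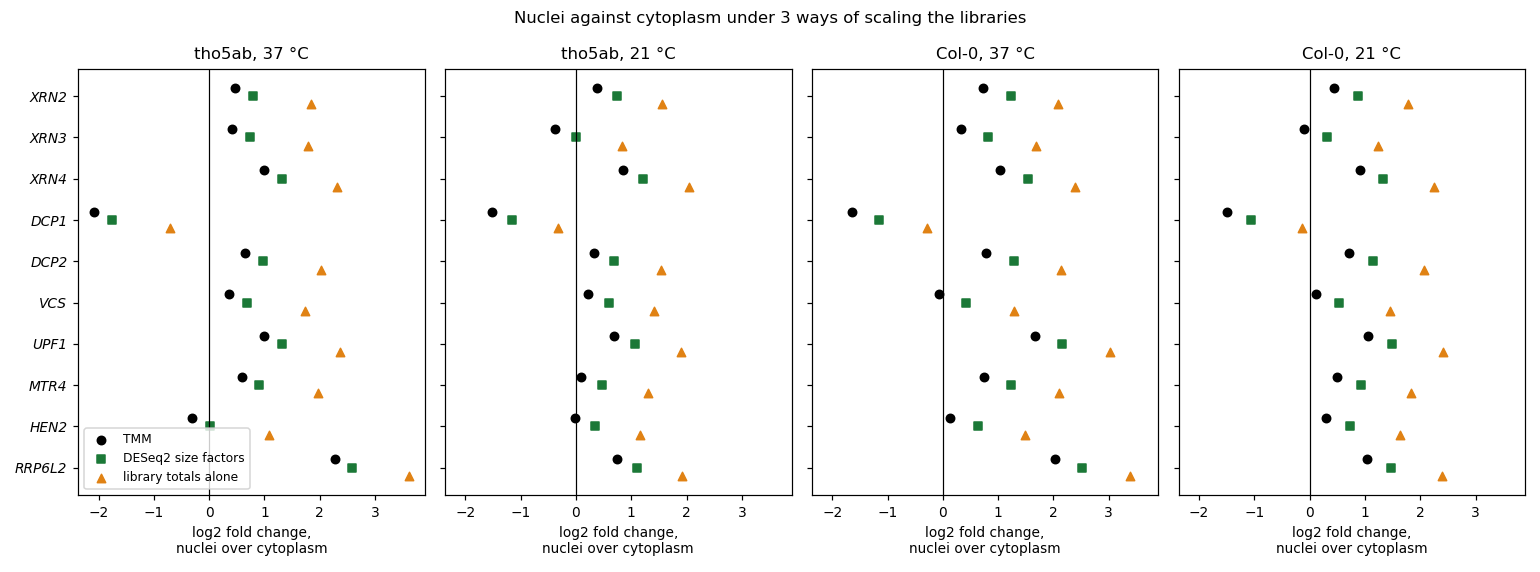
Log2 fold change of nuclei over cytoplasm (horizontal axis) for each of the 10 transcripts in tho5ab and Col-0 at 37 °C and 21 °C, with libraries scaled by TMM, by DESeq2's size factors or by their totals alone. DCP1 lies furthest left and RRP6L2 or UPF1 near the right in each panel, while the choice of scaling moves all 10 together.

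Other genes of the same pathways were counted from lists of 57 genes for 5′ decay, deadenylation, the exosome core, exosome cofactors and nonsense-mediated decay, all of which were tested. Under heat 15 of the 57 rose and 7 fell in tho5ab nuclei (median log2 change of 0.17), and 12 rose and 8 fell in the cytoplasm of tho5ab (0.15), beside 25.1% higher and 27.1% lower, and 22.2% and 20%, of all tested genes. In nuclei of Col-0 21 rose and 4 fell (0.35), and in its cytoplasm 15 rose and 7 fell (0.28), beside 21.9% and 23.8%, and 24.7% and 19.7%, of all. Falls made up a smaller share of the 57 than of all genes in all 4 heat comparisons. Rises made up a larger share in Col-0 nuclei and one near that of all genes in the other comparisons. These differences from all genes were not tested. In the heated nuclei of tho5ab 8 of the 57 were higher and 14 lower than in Col-0, beside 18.5% and 15.9% of all tested genes. The 14 exosome core genes gave 0 higher and 4 lower (median of -0.59), and the 22 genes of 5′ decay gave 8 higher and 3 lower (median of 0.36), beside a median over all genes of -0.08; the difference between the lists was not tested. At 21 °C the nuclei gave 6 higher and 2 lower (21.5% of all genes called), and the cytoplasm 1 higher and 0 lower (3.58%), while the cytoplasm at 37 °C gave 2 and 2 (14.1%). In nuclei against cytoplasm, 22 of the 57 were higher and 14 lower in heated tho5ab plants, and 24 and 20 in unheated ones. In Col-0 the counts were 26 and 16 with heat, and 23 and 15 without. Of all genes, 61.6% to 67.9% were called in these 4 comparisons.

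RRP4, an RNA-binding cap subunit of the exosome, had 18.7, 20.9 and 24.9 CPM in tho5ab nuclei at 37 °C, against 4.75, 6.22 and 14.0 CPM at 21 °C (1.46 ± 0.29, edgeR adjusted p = 4.08e-05). In Col-0 nuclei it had 32.6, 34.8 and 48.4 CPM at 37 °C, against 7.99, 8.25 and 11.8 CPM at 21 °C (2.08 ± 0.29, edgeR adjusted p = 6.88e-08). No library overlapped in either. It rose in cytoplasm too, by 1.28 ± 0.36 in tho5ab, lost without replicate 6 (0.78), with library totals alone (0.72) and with only the groups compared (1.14), and by 2.71 ± 0.39 in Col-0. AHG2, the poly(A)-specific ribonuclease PARN, rose in tho5ab nuclei, with means of 24.6 CPM at 37 °C and 8.73 CPM at 21 °C, and in Col-0 nuclei, with 44.2 and 11.7 CPM. RH8, a helicase of the DEAD box family, had 209.9 ± 22.6 CPM in Col-0 nuclei at 37 °C and 66.2 ± 6.82 CPM at 21 °C (1.66 ± 0.15), but its counts are uncertain. In tho5ab nuclei RH8 had 139 ± 17.1 CPM at 37 °C and 73.7 ± 7.26 CPM at 21 °C. RH8, AHG2 and EMB2763 each overlap at least 1 gene on the opposite strand. EMB2763, the exosome nuclease RRP44A, fell in tho5ab cytoplasm (-0.80 ± 0.20, edgeR adjusted p = 0.000894). In Col-0 cytoplasm it had 37.0 ± 8.36 CPM at 37 °C and 52.0 ± 12.3 CPM at 21 °C.

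SAL1, a phosphatase that removes an inhibitor of XRN enzymes, went down with heat in all 4 comparisons. In tho5ab cytoplasm it had 36.8 ± 10.8 CPM at 37 °C, against 126 ± 35.7 CPM at 21 °C (-1.77 ± 0.22, edgeR adjusted p = 2.29e-09). In Col-0 cytoplasm it had 15.7 ± 7.56 CPM at 37 °C, against 112 ± 15.9 CPM at 21 °C (-2.81 ± 0.23, edgeR adjusted p = 1.02e-14). In nuclei the change was -1.77 ± 0.20 in tho5ab and -1.42 ± 0.20 in Col-0. These SAL1 changes passed in all 16 alternatives.

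VCR (AT3G13290), a close relative of VCS, ends 187 bases before VCS begins, on the same strand of chromosome 3. In tho5ab nuclei it had 195, 209.6 and 278 CPM at 37 °C, against 50.7, 53.3 and 54.5 CPM at 21 °C (2.11 ± 0.16, edgeR adjusted p = 1.09e-15). In Col-0 nuclei it had 73.1, 80.1 and 95.1 CPM at 37 °C and 49.9, 52.5 and 60.6 CPM at 21 °C. All 6 heated tho5ab nuclear libraries were above every library of the other 7 groups. Against heated Col-0 nuclei the difference was 1.46 ± 0.16 (edgeR adjusted p = 1.79e-10), and the heat change differed between genotypes by 1.48 ± 0.23 (edgeR adjusted p = 1.31e-05). For VCS next to it that last value was 0.19 ± 0.18 (edgeR adjusted p = 0.80). The 2 genes share 36 of the 4901 stretches of 50 bases in the VCS transcript (0.735%), where reads cannot be told apart.

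The likeness of the 10 to other transcripts was described by Pearson's r of log2 CPM over the 48 libraries, which share fractions, treatments and scaling. DCP1 was most like AT5G07020 (r = 0.958), UPF1 like AT3G57470 (0.930), RRP6L2 like AT4G31210 (0.909), XRN4 like VIP2 (0.880) and MTR4 like SSL4 (0.862). XRN2, DCP2, VCS and XRN3 reached 0.808, 0.806, 0.803 and 0.728, and HEN2 reached 0.621. Of all pairs of the 10, MTR4 and RRP6L2 had the highest r within the 24 nuclear libraries (0.936), and 0.136 within the 24 cytoplasmic libraries. The nuclear r pools groups that differ in mean, so it includes the heat and genotype differences given above.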

How the data were processed

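Fractions were separated by differential centrifugation, ERCC spike-in RNA was added, and rRNA-depleted libraries were made, per the labels' protocols. The authors deposited 1 table of raw counts for every gene; the submitters' processing notes name STAR 2.7.8a, Picard, UMI-tools, featureCounts and the build TAIR10, and the strand setting is not given in the sources used here. Coordinates are those of RefSeq's TAIR10.1, and promoter windows are the 250 bases before each gene's start.

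The model was edgeR 4.0.16's negative binomial fit (R 4.3.3) after TMM scaling and filterByExpr over the 8 groups (17981 of 27420 genes) and 1 mean per group over all 48 libraries. The quasi-likelihood F test gave 18 contrasts, adjusted by Benjamini and Hochberg over all tested genes, with a threshold of 0.05. The SE given beside a log2 change is its size divided by the square root of F, an approximation. The procedure was also run on simulated counts in which only a small set of genes changed, in a single group. That run does not test the scaling where many genes change, as they did here. Correlations used log2 CPM with 2 as prior count. The rule for genes named took all 10 members, and from each pathway list the highest and lowest change past the threshold in a contrast; 1 further gene was left out because the reference gives it another name, and VCR, RRP4, SAL1, RH8, AHG2 and EMB2763 were picked from those named after their values were seen. Members and lists were chosen with earlier results of these data known.

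Libraries were called high in opposite-strand counts where the median log2 ratio of 81 nested genes to their hosts (at least 50 CPM) exceeded -5. The 16 alternatives were DESeq2's size factors, DESeq2 1.42.0's Wald test, library totals alone (chosen after seeing the data), no filter, only the groups compared, a replicate block, the 16 high opposite-strand libraries marked by a covariate, the other 32 alone, tho5ab without its libraries of number 7 at 37 °C, which stand apart in THO5A, and each of the replicate numbers 1 to 7 left out. Spike-in counts and protein sequences were not used here. 1 gene of the pathway lists is not reported by name here.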

Additional observations from a re-analysis of the deposited data

Results flagged for a closer look

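Within groups of 6, a library stood apart from the others by Dixon's 95% limit in 4 of 80 tests, and chance flags about 1 in 20 groups. DCP1 had 168 CPM in replicate 5 of tho5ab cytoplasm at 21 °C, against 131 CPM in the next highest library. VCS had 258 CPM in replicate 2 of tho5ab nuclei at 37 °C, against 210.1 CPM in the next. MTR4 had 38.1 CPM in replicate 1 of Col-0 cytoplasm at 21 °C, against 23.4 CPM in the next, and this is a library with high opposite-strand counts. HEN2 had 18.4 CPM in replicate 4 of tho5ab nuclei at 21 °C, against 25.0 CPM in the next lowest, again a library with high opposite-strand counts.

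Effects differed between groups, by interaction terms of the edgeR fit, in 6 cases. The log2 heat change of RRP6L2 in cytoplasm differed by -1.18, tho5ab less Col-0 (edgeR adjusted p = 0.0125). The heat change of RRP6L2 was 1.54 higher in nuclei than in cytoplasm of tho5ab (edgeR adjusted p = 3.73e-05) and 0.99 higher in Col-0 (edgeR adjusted p = 0.00645). The heat change of XRN3 was 0.79 higher in nuclei than in cytoplasm of tho5ab (edgeR adjusted p = 0.00869). The nuclear to cytoplasmic difference of UPF1 at 37 °C differed by -0.67, tho5ab less Col-0 (edgeR adjusted p = 0.0208). The heat change of UPF1 was 0.61 higher in nuclei than in cytoplasm of Col-0 (edgeR adjusted p = 0.0339).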

How the results depend on the processing

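Of 2880 recomputed log2 changes of the 10 transcripts, 2672 kept their direction and side of the threshold, 100 lost a call, 98 gained one and 10 turned round with a call on either side; the cause was not tested. With library totals alone these were DCP1 (-0.15) and VCS (-0.23) under heat in tho5ab cytoplasm, and in nuclei against cytoplasm HEN2 in tho5ab at 37 °C (1.08) and 21 °C (1.16), XRN3 at 21 °C in tho5ab (0.83) and Col-0 (1.24) and VCS in Col-0 at 37 °C (1.28). VCS in Col-0 at 37 °C also turned with DESeq2's size factors (0.42) and Wald test (0.43), and XRN3 in Col-0 at 21 °C with the Wald test (0.33).

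Counts of the 10 past the threshold moved by over 1.5 times as follows. DESeq2's size factors gave 8 in nuclei against cytoplasm of tho5ab at 21 °C and 2 for genotype by fraction at 37 °C. Library totals alone gave 5 for tho5ab against Col-0 in cytoplasm at 37 °C, 10 for nuclei against cytoplasm of tho5ab at 21 °C, and 3 for genotype by heat in nuclei and 3 in cytoplasm. No filter gave 1 for heat by fraction in Col-0. Without the 16 high opposite-strand libraries there were 2 for heat in tho5ab cytoplasm, 1 for genotype in cytoplasm at 37 °C and 0 for genotype by heat in cytoplasm. Only the groups compared gave 2 for heat in tho5ab cytoplasm, 7 for heat in Col-0 nuclei, 8, 1 and 1 for genotype in nuclei at 37 °C, cytoplasm at 37 °C and nuclei at 21 °C, and 3 and 0 for genotype by heat in nuclei and cytoplasm. DESeq2's Wald test gave 4 for genotype in nuclei at 21 °C, 8 for nuclei against cytoplasm of tho5ab at 21 °C, 3 and 2 for genotype by heat in nuclei and cytoplasm, and 2 and 1 for genotype by fraction at 37 °C and 21 °C.

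Leaving out each replicate number gave 2 to 4 for heat in tho5ab cytoplasm, 3 to 5 for heat in Col-0 cytoplasm, 1 to 3 for genotype in cytoplasm at 37 °C, 4 to 7 for nuclei against cytoplasm of Col-0 at 21 °C, 0 to 1 for genotype by heat in cytoplasm, 0 to 1 for genotype by fraction at 37 °C, and 1 to 2 for heat by fraction in tho5ab and in Col-0. In none of the 12 comparisons of groups did every same-numbered pair deviate together at r over 0.1, although up to 4 of 6 pairs did (r from -0.53 to 0.61 over all), so the numbers were not taken as pairs. With the replicate block 1 of 180 results changed, MTR4 for tho5ab against Col-0 in cytoplasm at 37 °C (-0.54, adjusted p = 0.0518 by edgeR), and 179 kept their call. Cytoplasmic depth limits the lowest members: DCP2 and HEN2 had as few as 8 counts in a library.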
